A study of Mus musculus with 18 samples.

Results

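The heat shock chaperones are described here as 10 genes, taken by symbol from 55536 genes of the count table: *Hspa1a*, *Hspa1b*, *Hspa8*, *Hsph1*, *Dnajb1*, *Hsp90aa1*, *Hsp90ab1*, *Hspa5*, *Hspd1* and *Hspe1*. Their transcripts were measured by RNA sequencing of microglia that had been enriched from the striatum of adult C57BL/6 mice, of the J substrain by the methods, with beads against CD11b. There were 5 WT samples, 3 Tyrobp-KO samples, in which *Tyrobp* was deleted on both alleles, 5 samples from heterozygous Q175 mice, whose endogenous *Htt* gene carries a human exon with an expanded CAG tract, and 5 Q175;Tyrobp-KO samples with both changes. Q175 and the *Tyrobp* deletion were carried in every cell of the body, so that neither is restricted to microglia. WT comprised 1 female and 4 males, Tyrobp-KO 2 females and 1 male, Q175 4 females and 1 male, and Q175;Tyrobp-KO 2 females and 3 males, so sex was not balanced between the groups. No age in months is given for these mice in the sources used here.

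Heat shock chaperones hold unfolded proteins, help them to fold and prevent their aggregation. Several of them can be induced by heat shock factor 1, which binds to repeated GAA and TTC units in promoters when unfolded proteins accumulate. The endoplasmic reticulum and mitochondria also have stress responses of their own. Aggregates of mutant huntingtin are a classical substrate of Hsp70 and its co-chaperones, and some of these genes can be induced when brain tissue is warmed during enzymatic dissociation. By the methods, the striata used here were put in ice-cold medium and dissociated mechanically in a Dounce homogenizer, with no enzyme named.

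In GRCm38, with the GENCODE M21 annotation, *Hspa1a* (ENSMUSG00000091971, chr17:34969190-34972156) and *Hspa1b* (ENSMUSG00000090877, chr17:34956436-34959238) are neighbouring genes of a single exon block on the minus strand and encode the inducible cytosolic Hsp70. *Hspd1* (ENSMUSG00000025980, chr1:55077835-55088243, minus strand) and *Hspe1* (ENSMUSG00000073676, chr1:55088132-55091307, plus strand) encode the mitochondrial chaperonin and its co-chaperonin and stand head to head, with 112 exonic bases in common on opposite strands. Because the libraries carried no strand, reads in these bases cannot be given to one gene or the other. *Hspa5* (ENSMUSG00000026864) on chr2, *Hsph1* (ENSMUSG00000029657) on chr5, *Dnajb1* (ENSMUSG00000005483) on chr8, *Hspa8* (ENSMUSG00000015656) on chr9, *Hsp90aa1* (ENSMUSG00000021270) on chr12 and *Hsp90ab1* (ENSMUSG00000023944) on chr17 lie apart from them.

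The bases before the start site are shown for both *Hspa1* genes, which are close copies of each other and stood lowest in level. They were read from RefSeq promoter sequences of GRCm38.p6, 5′ to 3′ on the minus strand, as positions -130 to -1 from the start of each gene, and differed at 1 of 130 bases, and at 3 of 250 bases over the longer upstream window. The capitals mark a heat shock element of 2 units.
Hspa1a, chr17:34972157-34972286: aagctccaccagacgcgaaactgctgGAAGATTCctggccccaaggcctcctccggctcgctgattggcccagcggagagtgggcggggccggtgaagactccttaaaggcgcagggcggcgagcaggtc
Hspa1b, chr17:34959239-34959368: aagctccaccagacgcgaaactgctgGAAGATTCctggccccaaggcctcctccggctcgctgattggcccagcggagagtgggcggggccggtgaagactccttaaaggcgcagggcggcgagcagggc

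Longer elements were found at other members. A heat shock element of 3 units, searched on both strands as GAANNTTCNNGAA or TTCNNGAANNTTC, occurred in 0.603% of 32851 RefSeq promoter windows of 300 bases, and 1 of 2 units (GAANNTTC or TTCNNGAA, which the longer motif contains) in 15.1%. The 3-unit motif matched in *Hsph1*, downstream of its start, and in the shared region of *Hspd1* and *Hspe1*, where 2 overlapping matches cover the same bases for both genes. *Hspa5* held the endoplasmic reticulum stress element, searched on both strands as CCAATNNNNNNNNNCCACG, at -65, a motif present in 0.119% of windows. The 2 windows of *Dnajb1* held none of these letters. *Hspa8*, *Hsp90aa1* and *Hsp90ab1* had no promoter window in the source and were not searched. The matched stretches are shown with the motif in capitals.
Hsph1, chr5:149636287-149636308, minus strand: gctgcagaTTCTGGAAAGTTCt
Hspe1, chr1:55088053-55088082, plus strand: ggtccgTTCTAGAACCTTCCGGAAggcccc
Hspa5, chr2:34772020-34772049, plus strand: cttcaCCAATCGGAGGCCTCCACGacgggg

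Sequence shared with other genes limits how far reads can be assigned to some members. Of all windows of 100 bases in the annotated transcripts of *Hspa1a*, 56.5% also occurred in another gene and 47.1% in *Hspa1b*, and of those of *Hspa1b*, 49.9% occurred in *Hspa1a*. On the opposite strand, 564 exonic bases of *Hspa1a* lie in *Gm20481*, and the windows were searched on both strands. The share was 38.0% for *Hsp90aa1*, mainly in the gene model *Gm12346*, 28.5% for *Hspa8*, 23.9% for *Hspd1*, whose copy is *Hspd1-ps3*, and 11% for *Hspe1*. *Hsph1*, *Dnajb1*, *Hsp90ab1* and *Hspa5* shared no window of this length. The sources used here do not give how reads with several positions were counted, and the levels of the first 6 are uncertain to the extent of the shared windows.

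**Figure D1:**
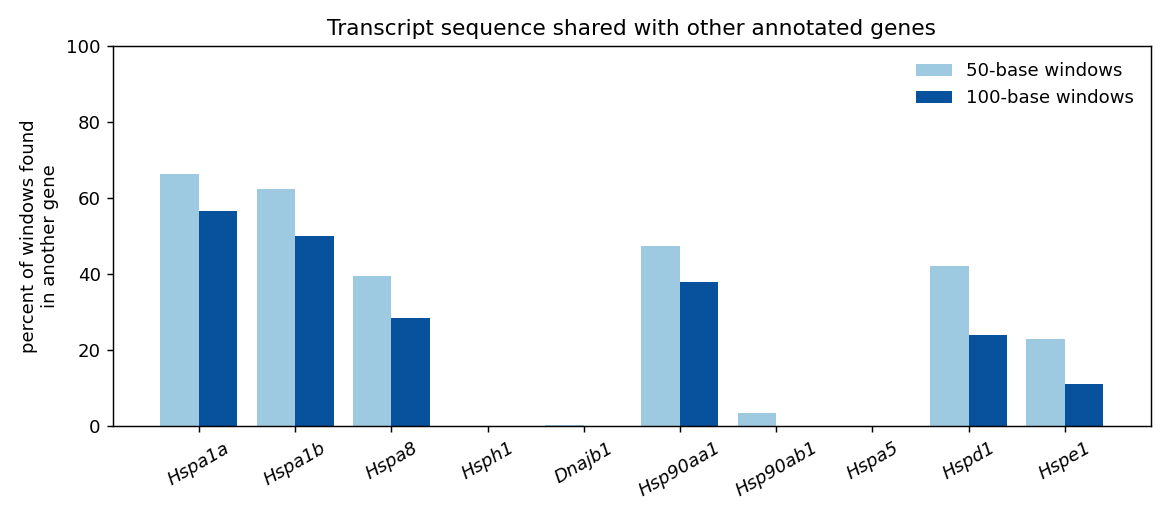
Percent of sequence windows of 50 bases (light) and 100 bases (dark) in the annotated transcripts of each gene that also occur in another annotated gene. The 2 *Hspa1* genes stand highest, at 56.5% and 49.9% of 100-base windows, and 4 genes are at 0% for that length.

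Each library held between 11260410 and 29771983 counts, and the gene models *Gm26917* and *Gm42418* took between 11.68% and 29.54% of them. *Tyrobp* was between 196.1 and 475.2 CPM, which are counts scaled to library size, in WT and between 9.904 and 21.34 CPM in all samples with the deletion. All 20 microglial markers were at 1 CPM or more in every sample, with summed levels from 19570 to 35220 CPM, but so were all 15 astrocyte, 10 pan-neuronal and 10 oligodendrocyte markers, with astrocyte sums of 1560 to 8667 CPM. The samples were therefore enriched for microglia and not free of other cells. In such bulk samples, fewer cells of a type and less RNA per cell cannot be told apart.

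Per kilobase of exon, *Hspa5*, the Hsp70 of the endoplasmic reticulum, and *Hspa8*, the constitutive cytosolic Hsp70, had the highest levels, with medians over 18 samples of 78.2 and 77.8 CPM per kb. They could not be ordered, since *Hspa5* was above *Hspa8* in 8 of 18 samples. *Hsp90ab1*, the constitutive cytosolic Hsp90, followed at 61.2 CPM per kb and was above *Hsp90aa1*, the inducible one, in 18 of 18 samples. Of the 100-base windows of *Hsp90aa1*, 38.0% were shared with other genes, so this order holds for the counts as deposited. *Hsp90aa1* and *Hspd1*, at 23.7 and 20.03 CPM per kb, changed places between samples, with *Hsp90aa1* higher in 11 of 18. *Hspe1* was at 12.7 CPM per kb, *Dnajb1*, a J-domain protein that hands clients to Hsp70, at 9.29, and *Hsph1*, which exchanges the nucleotide of Hsp70, at 5.13. *Hspa1b* and *Hspa1a* came last at 0.228 and 0.173 CPM per kb, each below *Hsph1* in every sample. The inducible Hsp70 genes were thus far below their constitutive relatives in all 4 genotypes.

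*Hspa1a* had between 1 and 44 counts and *Hspa1b* between 2 and 92 counts per sample, so that counting error alone is large. *Hspa1a* was at 0.45, 0.74, 2.31, 0.45 and 0.38 CPM in WT, at 0.06, 1.95 and 0.95 in Tyrobp-KO, at 0.53, 1.67, 0.24, 0.77 and 0.17 in Q175 and at 0.5, 0.91, 0.57, 0.12 and 0.17 in Q175;Tyrobp-KO, in the order of the replicate numbers. *Hspa1b* was at 0.11, 0.6, 1.25, 0.53 and 0.6 CPM in WT, at 0.17, 4.07 and 1.36 in Tyrobp-KO, at 0.68, 2.46, 0.2, 1.53 and 0.47 in Q175 and at 1.38, 1.12, 0.83, 0.12 and 0.38 in Q175;Tyrobp-KO. Within every group the samples lay several-fold apart, and all groups overlapped. Within Tyrobp-KO alone, the highest sample exceeded the lowest 33.6-fold for *Hspa1a* and 23.4-fold for *Hspa1b*.

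The partners of Hsp70 varied less. *Hsph1* was at 36.01, 46.7, 84.1, 30.3 and 23.9 CPM in WT, at 22.2, 59.5 and 40.2 in Tyrobp-KO, at 37.3, 55.1, 37.3, 47.2 and 32.7 in Q175 and at 51.3, 40.5, 35.02, 21.9 and 29.8 in Q175;Tyrobp-KO. Its highest value was in WT replicate 6, which also had the highest *Hspa1a* and *Hspa8*, and the groups overlapped. *Dnajb1* ranged from 21.4 to 50.8 CPM, with group means of 29.2 ± 7.41 in WT (SD, n = 5), 36.1 ± 12.7 in Tyrobp-KO (n = 3), 28.5 ± 4.24 in Q175 (n = 5) and 31.9 ± 4.48 in Q175;Tyrobp-KO (n = 5). *Hspa8* had means of 349 ± 116 CPM in WT, 414 ± 86.6 in Tyrobp-KO, 332 ± 115 in Q175 and 330.0 ± 51.3 in Q175;Tyrobp-KO, with samples from 188 to 522 CPM. For both genes the ranges of the 4 groups overlapped.

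Of the Hsp90 pair, *Hsp90aa1* had the wider spread. It was at 92.8, 93.7, 101 and, in 2 samples, 53.02 and 54.5 CPM in WT, and at 97.0, 109.6 and 163 in Tyrobp-KO. It was at 63.8, 107, 46.4, 177 and 168 CPM in Q175 and at 107, 60.7, 67.4, 75.5 and 92.2 in Q175;Tyrobp-KO. Q175 thus held both the lowest and the highest samples of the series, 3.81-fold apart. *Hsp90ab1* stayed between 109 and 269 CPM, with means of 163 ± 27.3 in WT, 206 ± 55.7 in Tyrobp-KO, 182 ± 49.6 in Q175 and 213 ± 36.4 in Q175;Tyrobp-KO. The ratio of *Hsp90aa1* to *Hsp90ab1* CPM within a sample had medians of 0.51 in WT, 0.521 in Tyrobp-KO, 0.774 in Q175 and 0.368 in Q175;Tyrobp-KO. It ran from 0.296 to 0.982 in Q175 and from 0.347 to 0.437 in Q175;Tyrobp-KO, where all samples lay inside the range of Q175.

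*Hspa5*, also known as BiP, had means of 318 ± 60.7 CPM in WT, 376 ± 108 in Tyrobp-KO, 297 ± 94.8 in Q175 and 343 ± 28.0 in Q175;Tyrobp-KO. Its samples spread 1.2-fold in Q175;Tyrobp-KO and 2.19-fold in Q175.

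The mitochondrial pair showed the lowest values of any group in Q175;Tyrobp-KO by mean. *Hspd1* was at 58.7, 56.8, 73.3, 38.8 and 37.2 CPM in WT, at 59.1, 63.4 and 83.8 in Tyrobp-KO, at 44.8, 52.8, 32.6, 80.6 and 73.8 in Q175 and at 53.03, 43.8, 46.4, 47.3 and 52.0 in Q175;Tyrobp-KO. All 5 Q175;Tyrobp-KO samples were below all 3 Tyrobp-KO samples, while they lay inside the ranges of WT and Q175. *Hspe1* was at 31.6, 20.8, 34.7, 12.2 and 11.5 CPM in WT, at 18.03, 24.3 and 41.6 in Tyrobp-KO, at 17.5, 22.8, 12.5, 32.1 and 27.1 in Q175 and at 19.3, 17.1, 14.7, 13.1 and 15.8 in Q175;Tyrobp-KO, where 1 sample was above the lowest Tyrobp-KO sample. The spread was narrowest in Q175;Tyrobp-KO for both genes, with a highest-to-lowest ratio of 1.21 for *Hspd1* and 1.48 for *Hspe1*, against 2.47 and 2.56 in Q175.

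**Figure D2:**
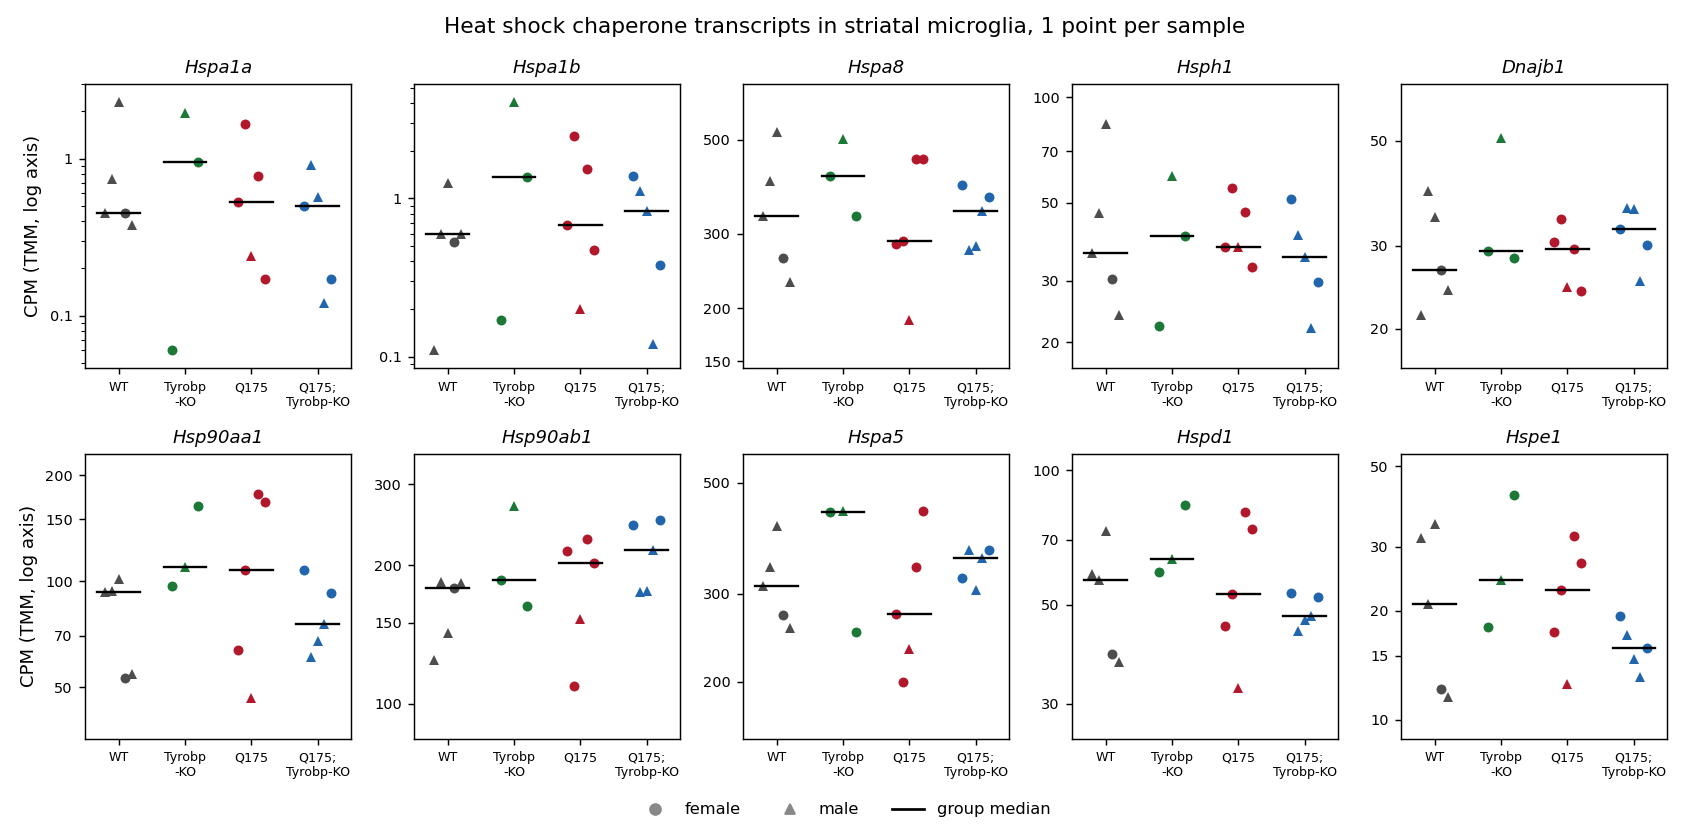
CPM of the 10 genes, scaled by TMM, in each sample on log axes, with circles for females, triangles for males and bars for group medians. The groups overlap for every gene except *Hspd1* in Q175;Tyrobp-KO (43.8 to 53.03 CPM) against Tyrobp-KO (59.1 to 83.8 CPM).

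Q175 against WT asks whether mutant huntingtin was accompanied by a change of these chaperones in microglia. None of the 10 members passed an adjusted p of 0.1 in edgeR's quasi-likelihood test, nor did any of the 18266 genes tested (0%), and none of the 10 had an unadjusted p under 0.05, against 6.24% of all genes. DESeq2 called 0 of the 10 and 234 genes in all (1.28% of those with an adjusted p). The log2 fold changes were 0.54 for *Hsp90aa1* (SE 0.36, 95% interval -0.23 to 1.32) and 0.75 for *Hspa1b* (SE 0.69, interval -0.75 to 2.24), and those of the other 8 were between -0.43 and 0.19. The median over the members was 0.02, with 5 higher and 5 lower, beside -0.02 over all genes. Within sex the directions were opposite. Every member was higher in the 4 Q175 females than in the 1 WT female, by 0.02 (*Hsp90ab1*) to 1.17 (*Hsp90aa1*) on the log2 scale. In the 1 Q175 male, replicate 9, every member was below the mean of the 4 WT males, from -0.03 (*Hsp90ab1*) to -1.32 (*Hspa1a*). Each direction thus rests on 1 sample on 1 side, and the difference between the sexes was not tested. The intervals of *Dnajb1* (-0.43 to 0.4), *Hspa5* (-0.58 to 0.46) and *Hspa8* (-0.66 to 0.59) leave out a doubling in either direction, and those of the *Hspa1* genes do not. All 15 astrocyte markers were higher in Q175, with a median log2 fold change of 1.06, 13 at an unadjusted p under 0.05 and summed levels of 2162 to 8667 CPM against 1631 to 2129 in WT, and 4 of 5 Q175 mice but 1 of 5 WT mice were female. When the level of non-microglial markers was entered in the fit, all 10 members had negative log2 fold changes, between -0.97 and -0.04, each with adjusted p = 0.9999 in edgeR. Among them, *Hsp90aa1* was at -0.92 in place of 0.54, *Hspa8* at -0.97 in place of -0.03, *Hspe1* at -0.95 in place of 0.05, *Hspd1* at -0.85 in place of 0.14 and *Hspa5* at -0.64 in place of -0.06, so the intervals above hold for the fit without this term.

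Q175;Tyrobp-KO against Q175 asks what deletion of *Tyrobp* did on the Q175 background. No member was called, against 0.0111% of 18059 genes, and 0 of 10 had an unadjusted p under 0.05, against 8.01% of all genes. DESeq2 called 0 of the 10 and 41 genes in all (0.232%). *Hspe1* had the lowest p of the members, with a mean of 15.99 CPM against 22.4 and a log2 fold change of -0.49 (SE 0.23, interval -0.99 to 0.01, adjusted p = 0.5326 in edgeR). *Hsp90aa1* had a log2 fold change of -0.48 (SE 0.34) and *Hsp90ab1* one of 0.22 (SE 0.2). Across the members the median was -0.23 with 3 higher and 7 lower, and over all genes -0.05. Markers of other cells were lower as well, with 11 of 12 for medium spiny neurons (median -0.94, 5 at an unadjusted p under 0.05), 10 of 10 pan-neuronal (median -0.32), 10 of 10 for oligodendrocytes (median -0.27) and 13 of 15 for astrocytes (median -0.35), the last 3 lists with 1 gene at that level between them. Summed levels of the medium spiny neuron list were 266.6 to 719.1 CPM against 239.6 to 1061 in Q175, with no marker at 0. With a score of the astrocyte, pan-neuronal and oligodendrocyte markers in the fit, 6 of 10 members were negative, with values between -0.8 and 0.37. *Hsp90aa1* was then at -0.17 in place of -0.48, *Hspd1* at -0.07 in place of -0.23 and *Hspe1* at -0.35 in place of -0.49. *Hspa1a* was at -0.8 in place of -0.45. Medium spiny neuron markers were not in that score, and the part of these cells in the members' values was not tested. The value of *Hspe1* was -0.24 with sex as a term and -0.64 without Q175 replicate 9, the sample in which 3 members had their lowest level of the series.

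Tyrobp-KO against WT asks the same without the Q175 allele. None of the 10 members was called, against 0.0222% of 18017 genes, and DESeq2 called none of them among 168 genes (0.935%). *Hsp90aa1* alone had an unadjusted p under 0.05, which is 1 of 10 beside 6.82% of all genes, with means of 123 ± 35.2 CPM in Tyrobp-KO and 79.04 ± 23.3 in WT, a log2 fold change of 0.7 (SE 0.27, interval 0.09 to 1.31) and adjusted p = 0.6367 in edgeR. It was higher in 14 of 15 pairs of samples, and its log2 fold change was 0.46 without Tyrobp-KO replicate 20. Of the members, 9 had positive values, among them *Hspa1b* at 1.67 (SE 0.84, interval -0.18 to 3.53), and *Hsph1* was at -0.05, and the median was 0.39 beside 0.02 over all genes. For *Hspa1b* the value was 0.33 without Tyrobp-KO replicate 19, a library with 92 counts of it. All 15 astrocyte markers were higher here too, 8 of them at an unadjusted p under 0.05. So were 18 of 20 microglial markers (median 0.28) and 9 of 10 pan-neuronal ones (median 0.69). Of border macrophage, monocyte and neutrophil markers, 9 of 10 tested were higher (median 0.78). For endothelial cells it was 6 of 8, for medium spiny neurons 8 of 12 and for oligodendrocytes 6 of 10. With the non-microglial score, built from astrocyte, pan-neuronal and oligodendrocyte markers, in the fit, 1 of the 10 members had a negative value. In that fit *Hsp90aa1* was at 0.49 in place of 0.7 (unadjusted p = 0.1233 in edgeR) and *Hspe1* at 0.03 in place of 0.39. *Hspa5* was at 0.54 in place of 0.32 (unadjusted p = 0.04154 and adjusted p = 0.4648 in edgeR). The part of cells outside this score was not tested.

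Q175;Tyrobp-KO against Tyrobp-KO asks what the Q175 allele did where *Tyrobp* was missing. No member was called, as no gene was (0% of 17723), but 3 of 10 had an unadjusted p under 0.05, all lower, where 8.24% of all genes were lower and 13.2% differed in either direction. *Hspd1* had means of 48.5 ± 3.92 CPM against 68.8 ± 13.2, a log2 fold change of -0.52 (SE 0.14, interval -0.84 to -0.21) and adjusted p = 0.2907 in edgeR, and was the 1 member with groups that did not overlap, as did 5.92% of all genes in that direction. *Hspe1* was at -0.82 (SE 0.26, interval -1.4 to -0.24, adjusted p = 0.2907), and *Hsp90aa1* at -0.63 (SE 0.23, interval -1.15 to -0.12, adjusted p = 0.315). The members had a median of -0.44, with 9 below 0 and *Hsp90ab1* at 0.02, beside -0.01 over all genes. DESeq2 called *Hspd1* with a log2 fold change of -0.51 and adjusted p = 0.0526, when it called 680 genes in all (4.65%) and gave no adjusted p to 2 of the members.

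These 3 values leaned on Tyrobp-KO replicate 20, which had the highest *Hspd1* and *Hspe1* of the series. Without it the log2 fold changes were -0.36 for *Hspd1*, -0.42 for *Hspe1* and -0.38 for *Hsp90aa1*, with edgeR adjusted p of 0.2565, 0.3231 and 0.3869. Within sex, *Hspd1* differed by -0.42 on the log2 scale in females (2 against 2 samples) and by -0.47 in males (3 against 1), and *Hspe1* by -0.65 and -0.7. Marker lists stood lower in the same comparison. At an unadjusted p under 0.05, 5 of 8 endothelial markers were lower, 6 of 10 tested markers of border macrophages, monocytes and neutrophils, and 8 of 20 microglial markers. Their summed CPM ranged from 35.2 to 54.0 in Q175;Tyrobp-KO and from 49.6 to 97.9 in Tyrobp-KO for endothelial cells, from 22.0 to 67.7 and from 64.6 to 118 for the border macrophage list, in which *Ly6g*, *Lyve1* and *Pf4* were at 0 in at least 1 sample, and from 21780 to 30370 and from 25920 to 35220 for microglia. With the non-microglial score in the fit, *Hspd1* was at -0.51 in place of -0.52 and *Hspe1* at -0.77 in place of -0.82. *Hsp90aa1* stayed at -0.63. Their adjusted p in edgeR were 0.1317, 0.1395 and 0.1317, against 0.2907, 0.2907 and 0.315 without the score. Endothelial, border macrophage and microglial markers were not in that score. The part of these cells in the values of *Hspd1*, *Hspe1* and *Hsp90aa1* was not tested.

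Whether the effect of Q175 differed with and without *Tyrobp* was tested as an interaction over all 18 samples. None of the 10 members was called, and none of 18613 genes (0%), while DESeq2 called 2 genes (0.0107%) and no member. *Hsp90aa1* alone had an unadjusted p under 0.05, beside 6.01% of all genes, with an interaction of -1.12 (SE 0.48, interval -2.13 to -0.11, adjusted p = 0.7163 in edgeR). The effect of Q175 on it was 0.54 with *Tyrobp* and -0.63 without. All 10 members had negative interactions, between -2.02 for *Hspa1b* and -0.03 for *Hspa5*, with a median of -0.43 beside 0.04 over all genes. These comparisons share the samples of all 4 genotypes and are not independent of each other. With sex as a term the interaction of *Hsp90aa1* was -0.69, and with the non-microglial score -0.54, both without an unadjusted p under 0.05. Astrocyte markers had negative interactions in 15 of 15 cases, with a median of -1.09.

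**Figure D3:**
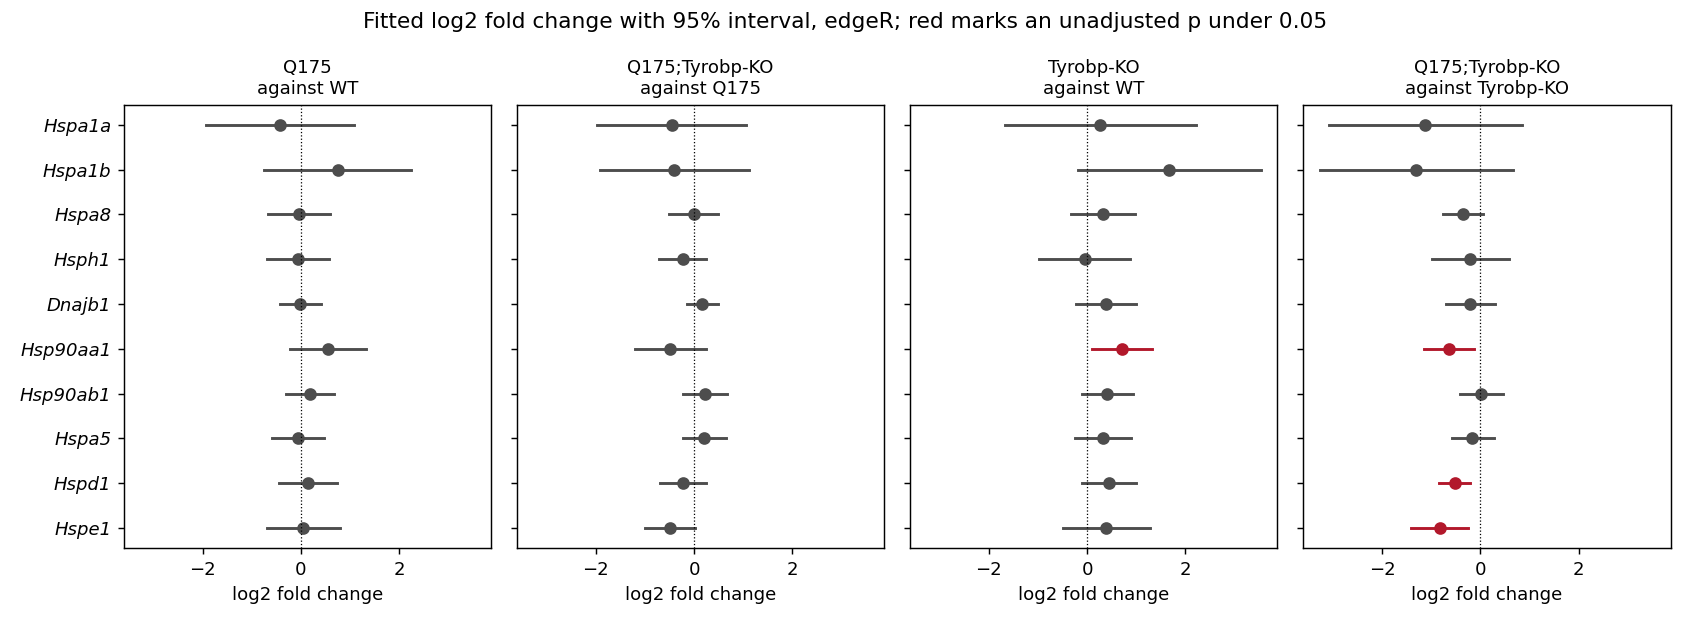
Log2 fold change of each gene in 4 comparisons with its 95% interval from the edgeR fit, with an unadjusted p under 0.05 in red. The red points are *Hsp90aa1* in Tyrobp-KO against WT (0.7) and *Hsp90aa1*, *Hspd1* and *Hspe1* in Q175;Tyrobp-KO against Tyrobp-KO (-0.63, -0.52 and -0.82), none of which passed the adjusted threshold of 0.1.

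The wider chaperone network was described by 4 further lists, in which edgeR called no gene in any of the 5 tests. DESeq2 called list genes in Q175;Tyrobp-KO against Tyrobp-KO alone, all lower, with 5 of 14 in the chaperonin list (*Cct2*, *Cct3*, *Cct4*, *Cct6a* and *Cct8*), 4 of 24 for the endoplasmic reticulum (*Canx*, *Dnajb9*, *Hsp90b1* and *Manf*), 2 of 35 other cytosolic chaperones (*Dnajb4* and *Hspa13*) and 0 of 14 mitochondrial genes, beside 4.65% of all genes. The values that follow are those of edgeR. The cytosolic chaperonin CCT and the prefoldin that feeds it had 14 of 14 genes lower in Q175;Tyrobp-KO than in Tyrobp-KO, 8 of them at an unadjusted p under 0.05, with a median log2 fold change of -0.37. The lowest p were those of *Cct8* (-0.56, SE 0.13), *Cct2* (-0.38, SE 0.09), *Cct4* (-0.42, SE 0.12) and *Cct3* (-0.34, SE 0.1), subunits of the ring. In Tyrobp-KO against WT the same list had 14 of 14 genes higher, but 1 at an unadjusted p under 0.05, the prefoldin subunit *Pfdn2* (0.7, SE 0.28), and its median was 0.14. Of 24 genes of the endoplasmic reticulum, 19 were lower in Q175;Tyrobp-KO than in Tyrobp-KO, 6 of them at that level, with *Manf*, a secreted stress protein, at -0.47 (SE 0.1), *Hsp90b1*, the Hsp90 of this compartment, at -0.43 (SE 0.11) and *Canx*, a lectin chaperone, at -0.45 (SE 0.12), while *Hspa5* itself was at -0.16 (SE 0.19).

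Against Q175, 17 of these 24 genes were higher and 7 lower in Q175;Tyrobp-KO, with 2 at an unadjusted p under 0.05, a share near the 8.01% of all genes, the sensor *Atf6* at 0.46 (SE 0.17) and *Edem1*, which directs misfolded glycoproteins to degradation, at 0.42 (SE 0.17). Among 14 mitochondrial chaperones and proteases, 8 were higher and 6 lower in Q175;Tyrobp-KO than in Tyrobp-KO, with a median of 0.06 and 2 lower at that level. Of these, *Hspa9*, the mitochondrial Hsp70, was at -0.34 (SE 0.12), and *Grpel2*, its exchange factor, was at 0.51 (SE 0.17) in Q175;Tyrobp-KO against Q175. Of 35 other cytosolic chaperones and co-chaperones tested, 20 were lower and 15 higher in Q175;Tyrobp-KO than in Tyrobp-KO, and 6 were lower at an unadjusted p under 0.05, among them *Hspa13* (-0.52, SE 0.14), *Dnajb4* (-0.41, SE 0.12) and *Ptges3*, the Hsp90 co-chaperone p23 (-0.48, SE 0.16). In Q175 against WT, 3 of the 35 were higher at that level, the small heat shock proteins *Hspb8* (1.61, SE 0.67) and *Cryab* (0.92, SE 0.38) and the exchange factor *Hspbp1* (0.34, SE 0.15), beside 5.47% of all genes. Astrocyte and oligodendrocyte markers were higher in the same comparison, with 15 of 15 and 10 of 10, and their part in these values was not tested.

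The members varied together from sample to sample, in blocks. Over 18 samples, 14 of 45 pairs of members had correlated log2 CPM at adjusted p under 0.05 by both Pearson's r and Spearman's rho in permutation tests, with adjustment over 55 relations, and the signs were positive in 40 of the 45. The same share over all pairs of genes was not computed, so these pairs are not shown to be closer than genes at large. In the first block, *Hspa1a* was correlated with *Hsph1* (r = 0.87, rho = 0.87, permutation p = 2e-05 and 3e-05, adjusted 0.00022 and 0.00033) and with *Hspa1b* (r = 0.83, rho = 0.86, permutation p = 2e-05 and 3e-05, adjusted 0.00022 and 0.00033), and *Dnajb1* with *Hspa1b* (r = 0.74, rho = 0.67, adjusted permutation p = 0.00299 and 0.0162). Since *Hspa1a* and *Hspa1b* share sequence, their relation with each other may not be of separate transcripts, whereas *Hsph1* and *Dnajb1* shared no 100-base window with any gene.

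In the second block, *Hsp90aa1* was correlated with *Hspd1* (r = 0.95, rho = 0.93, adjusted permutation p = 0.00022 and 0.000183) and with *Hspe1* (r = 0.83, rho = 0.86, adjusted 0.00022 and 0.000183), and *Hspd1* with *Hspe1* (r = 0.91, rho = 0.92, adjusted 0.00022 and 0.000183). By r among 18612 genes, *Hspd1* ranked 203 and *Hsp90aa1* 706 for *Hspe1*, while *Hspd1* ranked 2 for *Hsp90aa1*. *Hspa8* was correlated with all 3, most with *Hspd1* (r = 0.83, rho = 0.83), and then with *Hsp90aa1* (r = 0.76, adjusted permutation p = 0.00213 and 0.00165) and *Hspe1* (r = 0.64, adjusted permutation p = 0.0214 and 0.0107), and with *Hspa5* as well (r = 0.77, rho = 0.76, adjusted permutation p = 0.00189 and 0.00189). *Hsp90aa1* and *Hsp90ab1*, the 2 forms of cytosolic Hsp90, were not detectably related (r = 0.14, rho = 0.22, adjusted permutation p = 0.796 and 0.581), and *Hsp90ab1* was in no pair past the threshold. Without the 2 samples farthest from the median of the first gene, r was 0.8 for *Hspa1a* and *Hsph1*, 0.92 for *Hsp90aa1* and *Hspd1*, and 0.45 for *Hsph1* and *Hspe1*, which joins the blocks and had r = 0.59 over all samples. Centred on the group means, the first 2 of these were 0.88 and 0.96, so these relations were present within the genotypes as well.

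**Figure D4:**
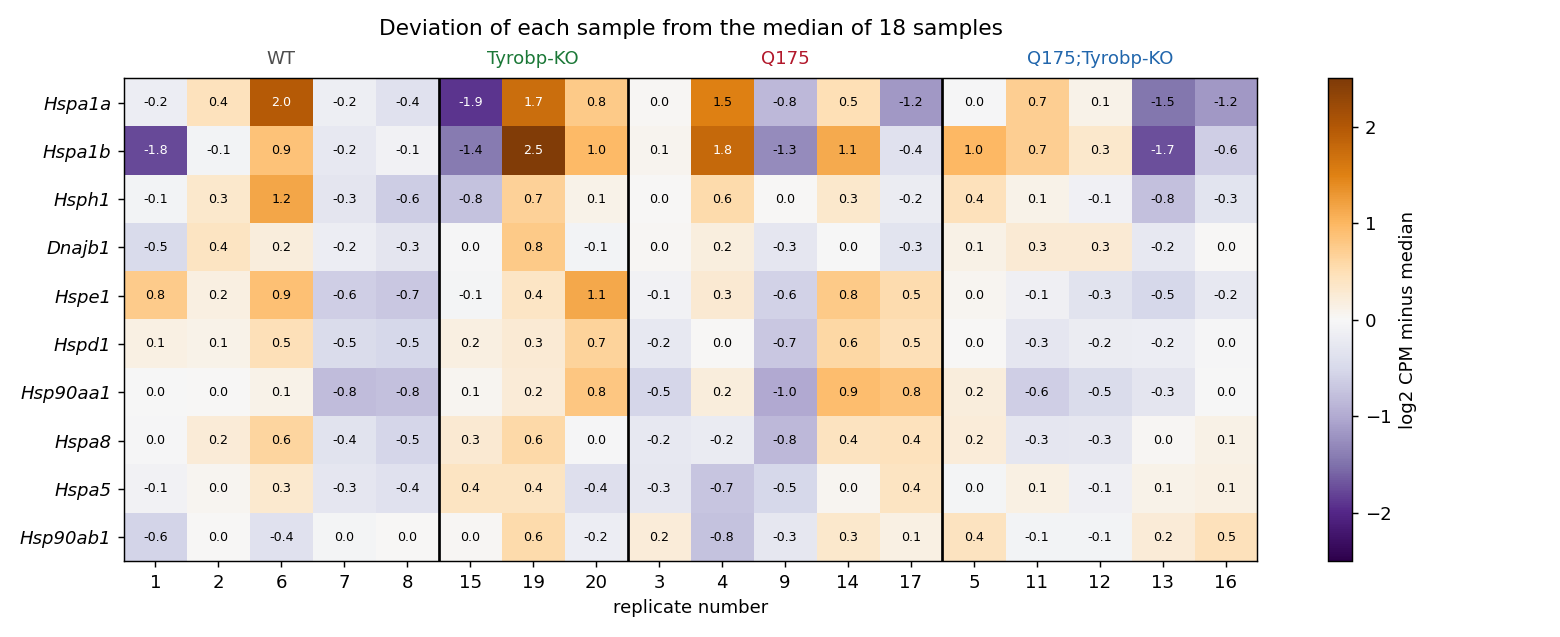
Log2 CPM of each gene in each sample minus its median over 18 samples, with samples in columns by genotype and replicate number and genes in rows by block. Samples such as WT replicate 6 and Tyrobp-KO replicate 19 are high, and Q175;Tyrobp-KO replicate 13 low, across *Hspa1a*, *Hspa1b* and *Hsph1*, while WT replicates 7 and 8 and Q175 replicate 9 are low across *Hspe1*, *Hspd1*, *Hsp90aa1* and *Hspa8*.

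The highest samples were few. WT replicate 6 was the highest sample for 3 members, which came from both blocks, Tyrobp-KO replicate 19 for 4, Tyrobp-KO replicate 20 for 2 and Q175 replicate 14 for 1, and no Q175;Tyrobp-KO sample was the highest for any. Q175 replicate 9 was the lowest for 3 members. The immediate early genes, a list of 20 that includes *Fos*, *Jun* and *Egr1* and can be induced in microglia by dissociation, were not detectably related to the chaperones over all samples. The mean log2 CPM of the 18 of them that passed the filter on low counts had r between -0.11 and 0.14 with the 10 members, none at an adjusted permutation p under 0.05. Within females all 10 r were negative, from -0.51 to -0.03, and within males all 10 were positive, from 0.12 to 0.52, again with none past the threshold, and the difference between the sexes was not tested. Nor did any of 30 relations of the members with total counts, with the share of *Gm26917* and *Gm42418* or with the non-microglial score pass it. The lowest of those permutation p were for *Hspa5* against the share of these gene models (r = -0.61, rho = -0.55, permutation p = 0.00785 and 0.0186, adjusted 0.128 and 0.4) and for *Hsp90aa1* against the non-microglial score (r = 0.6, rho = 0.53, permutation p = 0.00853 and 0.0267, adjusted 0.128 and 0.4).

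Within each sex, pairs from the same block kept their sign, and pairs from different blocks did not always. *Hspa1a* and *Hsph1* had r = 0.86 in 9 females and 0.9 in 9 males, and *Hsp90aa1* and *Hspd1* had r = 0.96 and 0.97. *Hspa1a* and *Hspa5*, with r = -0.14 and rho = -0.07 over all samples, had r = -0.9 and rho = -0.8 in females (exact permutation p = 0.00147 and 0.0138, adjusted over 55 relations 0.0134 and 0.109) and r = 0.7 and rho = 0.717 in males (exact permutation p = 0.0345 and 0.0369, adjusted 0.103 and 0.127). *Hspa8* likewise had r = -0.46 with *Hspa1a* in females and 0.71 in males. These differences between the sexes were not tested, and sex and genotype were unevenly combined. *Hspa1a* had 1 to 17 counts in the female libraries, so its values there carry a large counting error.

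**Figure D5:**
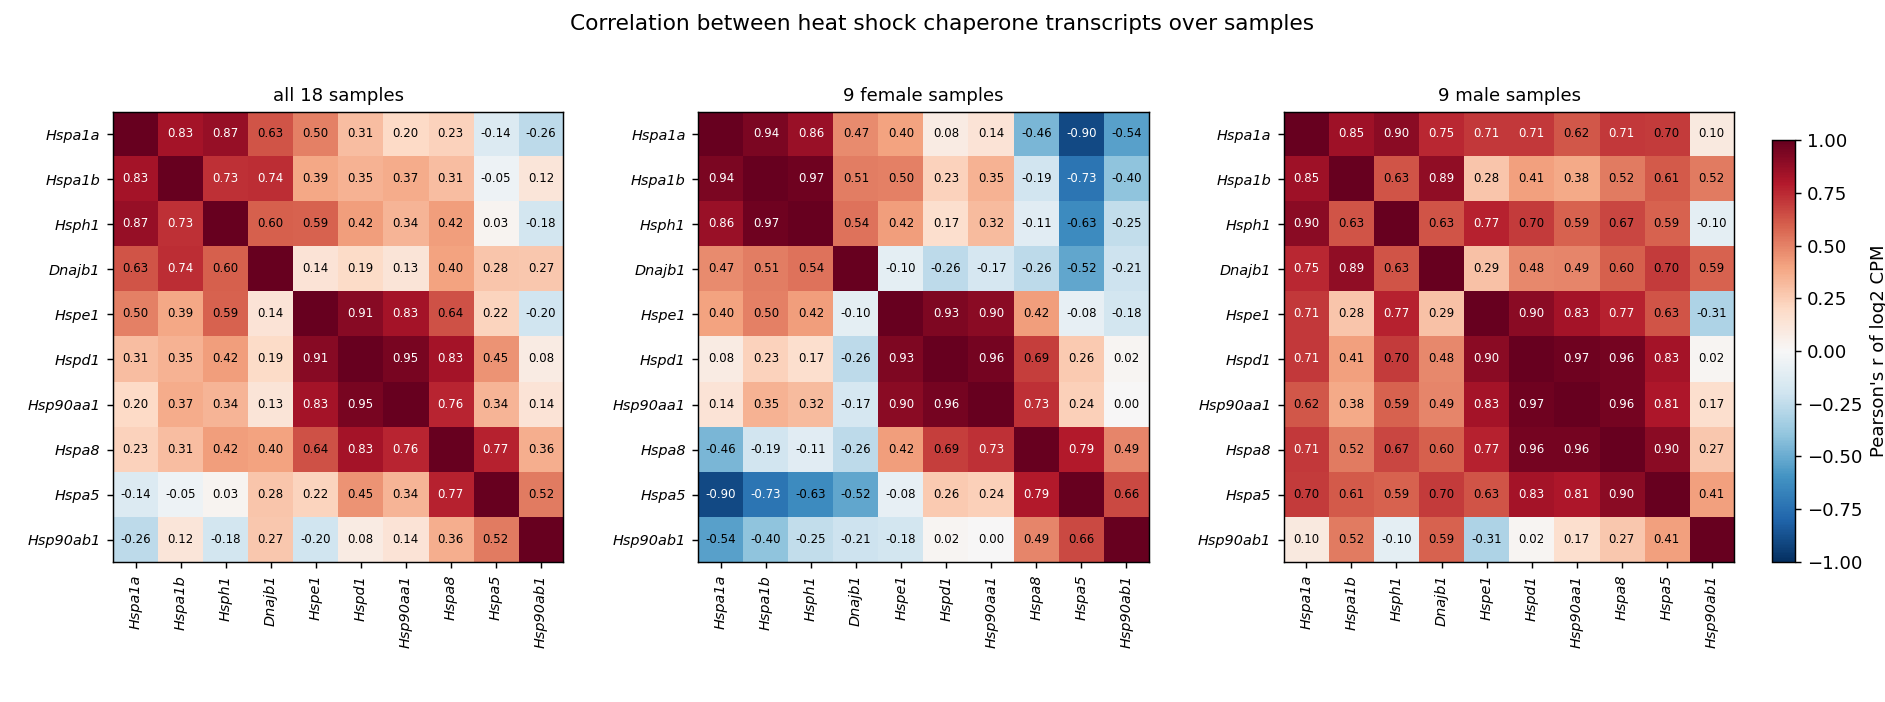
Pearson's r of log2 CPM between the 10 genes over all 18 samples (left), over 9 female samples (middle) and over 9 male samples (right), from -1 in blue to 1 in red. *Hspa1a*, *Hspa1b* and *Hsph1* have r of 0.63 or more in every panel and *Hspe1*, *Hspd1* and *Hsp90aa1* 0.83 or more, while *Hspa5* and *Hspa1a* have r = -0.9 in females and 0.7 in males. *Hspa1a* had 1 to 17 counts in the female libraries.

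The members also differed in how many other genes shared their pattern. Among 18612 genes, 2 had r of 0.8 or more with *Hspa1a*, 1 with *Hspa1b*, 3 with *Hsph1* and 0 with *Dnajb1*, and the nearest to *Hspa1a* were *Hsph1*, *Hspa1b* and *Jmjd6* (r = 0.79). With 1 to 44 counts of *Hspa1a* and 2 to 92 of *Hspa1b* per sample, counting error limits the r that these 2 genes can reach. The Hsp70 co-chaperone *Dnaja1* was among the 3 nearest to *Hsph1* (r = 0.81). In contrast, 703 genes (3.78%) reached that r with *Hspd1*, 916 (4.92%) with *Hspe1* and 479 (2.57%) with *Hsp90aa1*, but 45 (0.242%) with *Hspa8*, the nearest being *Gabarap* (r = 0.98) for *Hspd1*, *Asb3* (r = 0.97) for *Hspe1* and *Pafah1b1* (r = 0.95) for *Hsp90aa1*. Of the CCT and prefoldin genes, 5 of 14 reached it with *Hspd1* and 7 of 14 with *Hspe1*. The 3 nearest to *Hspa5* were *Dnajb11*, its J-domain partner in the endoplasmic reticulum (r = 0.89), *Eif4g2* (r = 0.87) and *Arhgdib* (r = 0.86), and 6 of 24 genes of that compartment's list were at 0.8 or more, beside 0.118% of all genes. For *Hspa8* they were *Rpl18* (r = 0.9), *Copz1* (r = 0.88) and *Dctpp1* (r = 0.87), for *Hsp90ab1* *Ppp2r1a* (r = 0.91), *Tspyl1* (r = 0.9) and *Ube2l3* (r = 0.9), and for *Dnajb1* *Hspa1b* (r = 0.74), *Rdh10* (r = 0.71) and *Gm19426* (r = 0.69). These correlations were taken over the same 18 libraries and carry no test.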

How the data were processed

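RNA was sequenced from CD11b-enriched striatal microglia of 18 mice or pools, since the labels give 2 striata per sample and the methods 1. Libraries were prepared with the SMART-Seq v4 kit, without strand, and the authors used STAR for alignment and featureCounts for counting. The deposited counts are whole numbers without normalization. The labels name a human build and the methods GRCm38, and all 55536 identifiers are those of GENCODE M21 for GRCm38, which gave symbols, positions and exonic lengths. Another 2 count columns match no labelled sample and were left out. Any 2 samples had equal counts in at most 3.69% of genes.

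For each comparison, edgeR 4.0.16 (quasi-likelihood, TMM) was run in R 4.3.3 on the samples of the groups compared, for genes reaching 1 CPM in 1 or more of them, without covariates, at a Benjamini-Hochberg FDR of 0.1. DESeq2 1.42.0 was an alternative. The pipeline was tested on simulated counts with 200 changed genes. Correlations used log2 CPM (prior count 2) and 100000 permutations, whose smallest p is 1e-05, or all orders for 9 samples, in Python 3.11.15. The 30 relations with library measures were added after the data were examined. Motifs and start sites came from RefSeq promoter tables of GRCm38.p6, which held windows for 7 of the 10 members. Replicates are separate samples of a genotype by their labels, and p-values measure the spread between these samples. Intervals cover counting error and sample spread as the fit estimates them, and amplified reads are not independent molecules. The members and gene lists were chosen with earlier results of these data known. From each further list, up to 4 genes per comparison with the lowest p, and for likeness the 3 genes of highest r, could be named, and *Tyrobp* as the targeted gene.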

Additional observations from a re-analysis of the deposited data

How the results depend on the processing

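No paired analysis was possible because no replicate number occurs in more than 1 genotype. Over 1083 alternative values of single members, 1011 kept their direction and their side of the threshold, 71 changed sign in members that were not called, and 1, *Hspd1* in Q175;Tyrobp-KO against Tyrobp-KO, was called, by DESeq2, which made the count of members called there 1 in place of 0. The values at an FDR of 0.05 are among those kept, but they came from the main fit and could not change. DESeq2 called 234 genes in Q175 against WT and 680 in Q175;Tyrobp-KO against Tyrobp-KO, where edgeR called 0, and 41 in Q175;Tyrobp-KO against Q175, 168 in Tyrobp-KO against WT and 2 in the interaction, where edgeR called 2, 4 and 0, and the cause was not tested. In Q175;Tyrobp-KO against Q175, 9 genes were called without a filter on low counts, 14 in 1 fit over all 4 groups, 1 at an FDR of 0.05, and 1 with sex, the non-microglial score or the immediate early level as a term. In Tyrobp-KO against WT, 15 were called without the filter, 8 in 1 fit over all 4 groups and 2 with the score. When each replicate was left out, the calls ranged from 1 to 5 and from 2 to 8 genes in these 2 comparisons, highest without Q175 replicate 9 and without WT replicate 6, lowest in the second without Tyrobp-KO replicate 15 or 19, and stayed at 0 in the other tests.

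The number of members at an unadjusted p under 0.05 depended more on the setting. It was 1 in place of 3 for Q175;Tyrobp-KO against Tyrobp-KO in 1 fit over all 4 groups. For Tyrobp-KO against WT, where it was 1, it became 0 in that fit and with the immediate early level as a term, and 2 without the filter and with sex as a term. For the interaction it was 0 in place of 1 with sex or the non-microglial score, and for Q175;Tyrobp-KO against Q175 it was 1 in place of 0 without the filter. With each replicate left out it ranged from 0 to 1 for Q175 against WT (1 without Q175 replicate 9), from 0 to 2 for Q175;Tyrobp-KO against Q175 (2 without Q175 replicate 9, 1 without Q175 replicate 3 or 17 or Q175;Tyrobp-KO replicate 5), from 0 to 3 for Tyrobp-KO against WT (3 without WT replicate 6, 2 without Tyrobp-KO replicate 15, 0 without WT replicate 8), from 2 to 5 for Q175;Tyrobp-KO against Tyrobp-KO (5 without Tyrobp-KO replicate 15) and from 0 to 3 for the interaction (3 without WT replicate 6 or Tyrobp-KO replicate 15, 2 without Q175 replicate 9, 0 without WT replicate 7 or 8, Tyrobp-KO replicate 20, Q175 replicate 14 or 17, or Q175;Tyrobp-KO replicate 11 or 12). Of the 45 pairs of members, 14 passed the threshold over all samples, while 7 did within 9 females and 11 within 9 males by Pearson's r, and 6 within each by both measures. *Hspa1b* in Tyrobp-KO against WT had log2 fold changes from 0.33 to 2.21 over 19 alternatives, 4 of them at an unadjusted p under 0.05. The DESeq2 calls within the 4 further lists were computed after the data were examined.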
